A study of Mus musculus with 9 samples.

Results

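The genes described here are 49 enzymes of amino acid breakdown in the mouse liver: the urea cycle and the steps that feed nitrogen into it, the pathways that degrade tyrosine, tryptophan, proline, histidine, lysine and the branched chain amino acids, the methionine and homocysteine cycle, and the glycine, sarcosine and glyoxylate enzymes. They were taken by name from a table of 30519 transcripts, 1 per gene. Of the 49, 48 matched by symbol, and Kyat3, which the table lists under an older symbol, matched by its gene identifier. The knockout mice lacked miR-122 (KO), a microRNA that makes up most of the microRNA of hepatocytes. The 4 KO mice were 1 female (replicate 1) and 3 males (replicates 2 to 4). Their 5 littermates carried the floxed allele and served as controls (WT): 3 females (replicates 1 to 3) and 2 males (replicates 4 and 5). All 9 mice were 6 weeks old, received no other treatment that the labels name, and have a mouse number of their own. The label of WT replicate 3 says female while the header of its data column says male; the label was used. The labels name no recombinase or promoter, so the cells in which the gene was deleted are not stated. PolyA RNA was sequenced from the share of each pulverised frozen liver that was not crosslinked, and the question was which transcripts differ in abundance without the microRNA.

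Hepatocytes are the main site of amino acid breakdown. Transaminases and dehydrogenases take the amino group off, the urea cycle turns the resulting ammonia and aspartate nitrogen into urea, and the carbon skeletons enter gluconeogenesis, ketone body formation or, for tryptophan, the synthesis of NAD. Methionine is activated to S-adenosylmethionine, the methyl donor of the cell, and the homocysteine left over is either methylated back to methionine or passed on to cysteine and taurine. Many of these enzymes are made almost only by mature hepatocytes, and inherited loss of several of them (Otc, Asl, Fah, Cbs, Gldc) causes metabolic disease in humans.

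Values are normalised abundances as the authors deposited them, which are already divided by transcript length, so that levels of different genes can be set side by side. Each gene stands in the table as 1 transcript, so a value is that of 1 isoform; for all 49 it is annotated as protein coding (GENCODE M21). Their sums, in units of M (mega), were 0.711 to 0.869 in KO and 0.873 to 1.17 in WT livers, so the deposited scale does not force equal totals. The members rested on 373 to 76596 estimated reads each (geometric mean over the libraries, median 3823). The spread between mice and the error of the read estimates were not separated. Where values are given one by one, KO replicates 1 to 4 and WT replicates 1 to 5 stand in that order, and mean ± SD are over 4 KO and 5 WT livers. A gene was called where limma's Benjamini-Hochberg adjusted p, over 10950 tested transcripts on log2(value + 1), was below 0.05. Folds are ratios of group means on the linear scale, and log2 fold changes are KO over WT on the log2(value + 1) scale.

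On the deposited scale, loss of miR-122 went with lower RNA of many of these enzymes. All 49 were abundant enough to be tested; 26 were called lower in KO (53.1%) and 2 higher (4.08%), and 21 were not called. Of all 10950 tested transcripts, 14.5% were called lower and 21.4% higher. Among the 3928 transcripts at least as abundant as the lowest member, a comparison added after the data were seen, 24.8% were lower and 15.4% higher. The members' median log2 fold change was -0.44, against 0.03 over all tested transcripts, and 41 of the 49 had a negative value. The decreases were mostly moderate: the 26 lower members lay 1.23-fold to 4.97-fold below WT with a median of 1.71-fold, 19 of them by at least 1.5-fold and 7 by at least 2-fold (Kyat3, Asl, Ahcy, Gldc, Got1, Arg1 and Amdhd1). At an unadjusted p below 0.05, limma counted 31 lower and 3 higher, Cth beside Tat and Bhmt, where 19.3% of all tested transcripts were lower and 26.4% higher. In 24 of the 26, and in Dmgdh, which was not called, every KO liver lay below every WT liver; over all tested transcripts this holds for 12.1%. Every KO liver lay above every WT liver for 1 member, Bhmt (19.0% over all tested transcripts), and the groups overlapped for the other 23.

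These are whole-liver values, so fewer hepatocytes and less RNA per hepatocyte cannot be told apart. Of 6 hepatocyte markers (Alb, Ttr, Apoa1, Serpina1a, Hnf4a and the member Cps1), 1 was called lower, Apoa1, and none higher, and their summed abundance was 50201 to 66119 in KO and 46744 to 108555 in WT livers. Markers of other cells moved: 4 of 4 tested cholangiocyte markers were higher (summed over the list of 5, 558 to 932 in KO and 33.1 to 59.5 in WT livers; Krt7 was below the filter), 5 of 5 macrophage markers were higher (139 to 172 in KO and 86.7 to 119 in WT livers), and 4 of 5 stellate cell markers were higher (226 to 268 in KO and 109 to 199 in WT livers). Of the 5 endothelial markers, Lyve1 was lower and none was higher (46.0 to 59.4 in KO and 45.2 to 66.1 in WT livers), and of the lymphocyte markers only Ptprc was abundant enough to test and was higher (all 5 summed, 5.80 to 10.1 in KO and 2.18 to 5.63 in WT livers). No marker stood at 0 in any library. The part of these shifts in the members' values was not tested.

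**Figure D1:**
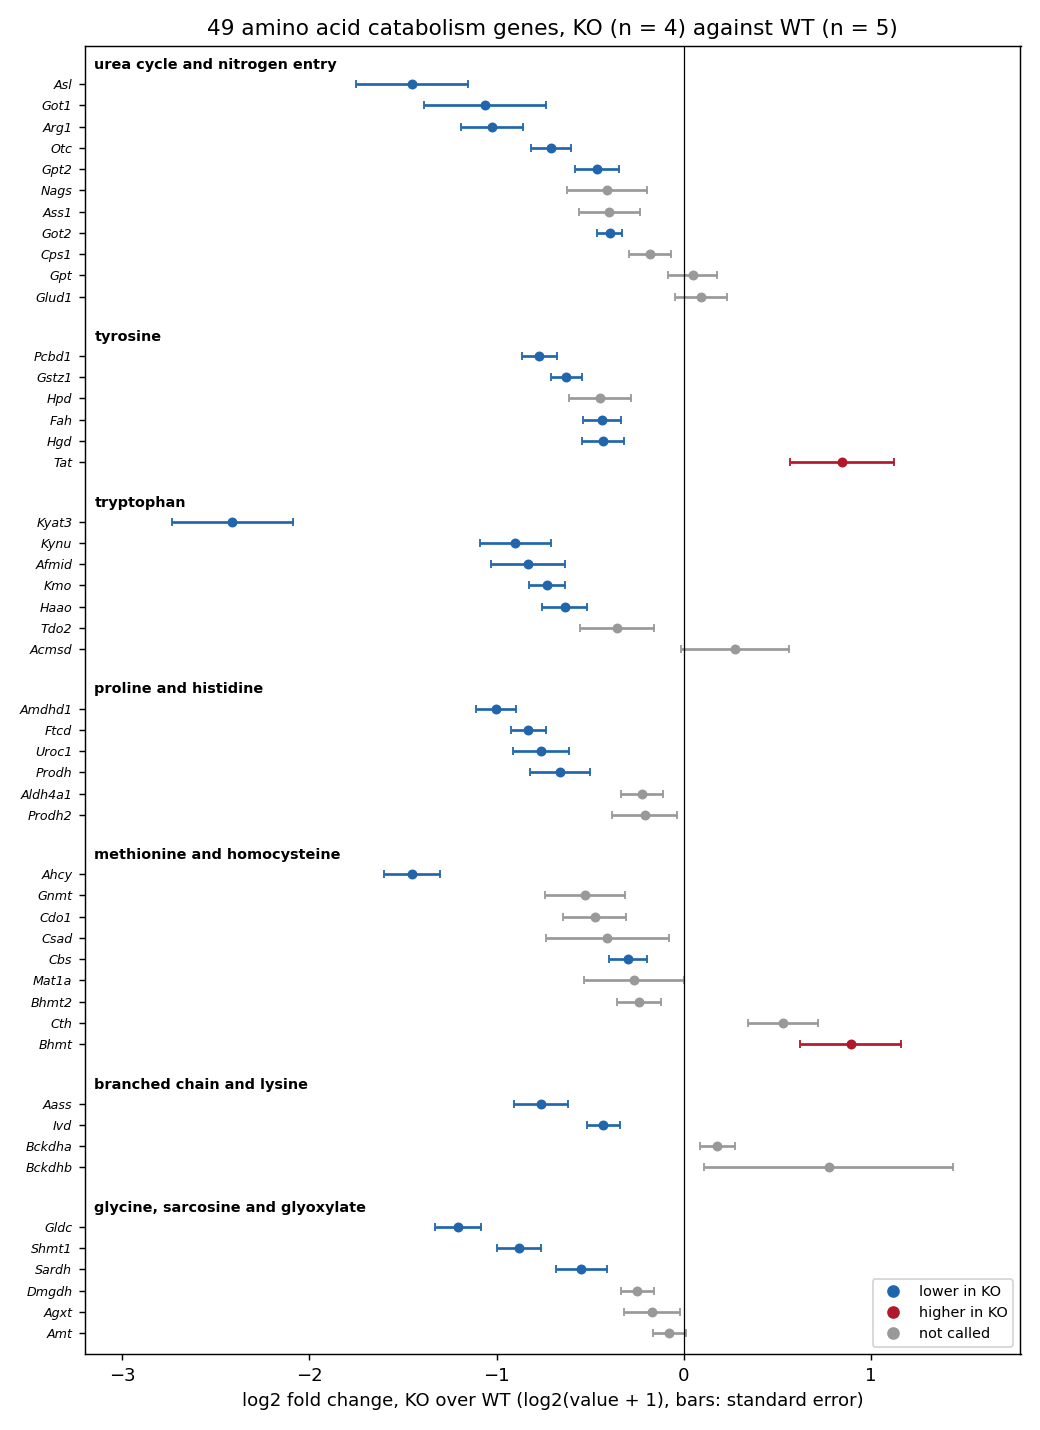
Log2 fold change of each of the 49 genes, KO (n = 4) over WT (n = 5), on the log2(value + 1) scale, with bars for the standard error, grouped by pathway and sorted within each. Blue marks the 26 genes called lower, red the 2 called higher (Tat and Bhmt) and grey the 21 not called; Kyat3 at -2.41 lies farthest to the left.

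**Figure D2:**
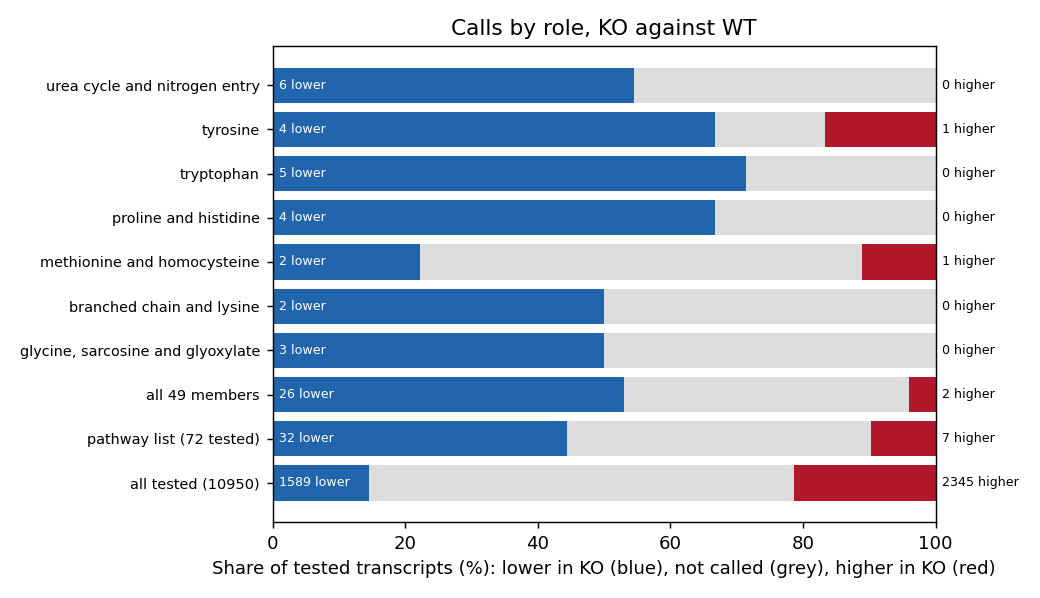
Share of tested transcripts called lower in KO (blue), not called (grey) and called higher in KO (red), in percent, for each pathway group, all 49 genes, the further 72 tested pathway genes and all 10950 tested transcripts. The number of calls is printed in or beside each bar; all calls are on the deposited scale, on which 5 of the 7 tryptophan genes were lower.

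The calls depend on how the libraries are put on 1 scale. When every library was scaled to the same total, the median log2 fold change of all tested transcripts moved to 0.36. On that scale 13 members were called lower (26.5%) and 8 higher (16.3%), against 2.72% lower and 45.0% higher over all transcripts. The shares among transcripts at least as abundant as the lowest member were not computed with equal totals. The members' median was then -0.04, and 29 of the 49 had a negative value. All 13 lower calls on that scale were also lower on the deposited scale: Otc, Asl, Arg1, Pcbd1, Kmo, Kynu, Kyat3, Amdhd1, Ftcd, Ahcy, Aass, Gldc and Shmt1. The 13 calls lost were Got1, Got2, Gpt2, Hgd, Fah, Gstz1, Haao, Afmid, Prodh, Uroc1, Cbs, Ivd and Sardh, of which Got2 (0.00) and Cbs (0.09) no longer had a negative log2 fold change. Tat and Bhmt stayed higher, and Glud1, Gpt, Acmsd, Cth, Bckdha and Amt were called higher on that scale alone.

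**Figure D3:**
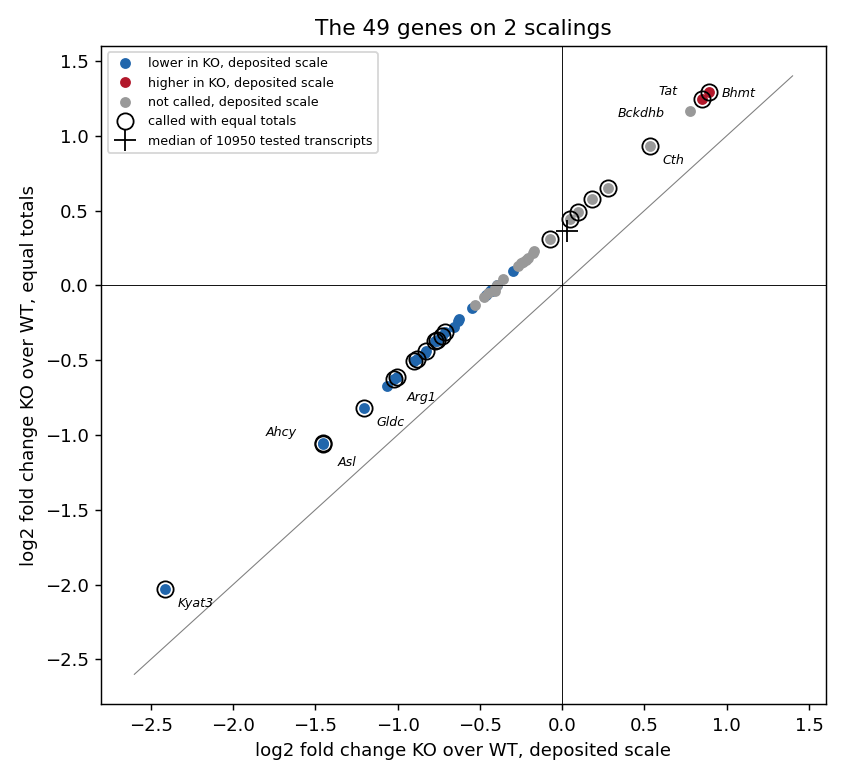
Log2 fold change of the 49 genes on the deposited scale (x axis) against the value after every library was scaled to equal totals (y axis); the diagonal marks equality, the cross the median of all 10950 tested transcripts (0.03 and 0.36), colours the calls on the deposited scale and rings the calls with equal totals. All points lie above the diagonal by a similar amount, and Kyat3, Ahcy, Asl, Gldc and Arg1 stay ringed below 0.

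Because miR-122 represses transcripts that pair with its seed, the 3′ UTRs of the 49 transcripts (GENCODE M21, GRCm38, each at least 50 bases long) were searched for the matching words: the 8mer ACACTCCA, its 7-base parts ACACTCC and CACTCCA, and the shared 6-base core CACTCC. Matches were rare among these genes. No member held the 8mer, Prodh2 and Bhmt2 held a 7-base match each, Bckdha and Cbs held the 6-base core alone, and 45 held none. A match of at least 7 bases was thus present in 4.08% of the members, against 13.1% of 9834 tested transcripts with a 3′ UTR; the median UTR was 739 bases long in members and 896 bases over all. Neither Tat nor Bhmt, the 2 members that were higher in KO, held a match. The 2 sites of 7 bases are shown as the only ones of that length among the members, 30 bases of the transcript strand each, with the match in capitals. The Prodh2 match lies at chr7:30513154-30513160 (plus strand) and the Bhmt2 match at chr13:93656003-93656009 (minus strand), both GRCm38.
Prodh2 site: tgtgtggtggcACACTCCtgttatcctagc
Bhmt2 site: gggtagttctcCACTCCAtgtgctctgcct
Neither gene was called: Prodh2, hydroxyproline dehydrogenase, had a log2 fold change of -0.21 ± 0.17 (SE), and Bhmt2, a methyltransferase that makes methionine from S-methylmethionine, one of -0.24 ± 0.12. A match is a description of letters, and binding at these sites was not measured here.

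Promoters were read from RefSeq (GRCm38.p6; 250 bases before to 50 after the start of transcription), where 41 of the 49 genes had 44 promoters. Both strands were searched for CCAAT, for CAAAGNNCA, the kind of word bound by the hepatocyte factor HNF4, and for TTGCNNAA, the kind bound by C/EBP factors. CCAAT occurred in 50% of the members' promoters, CAAAGNNCA in 13.6% and TTGCNNAA in 6.82%, against 37.4%, 6.36% and 10.8% of all 32851 promoters. The promoters of the 2 largest log2 decreases with an entry (Kyat3 and Ahcy) and of both increases (Bhmt and Tat) are shown in the direction of the gene, chosen after their values were seen, with every match to these words in capitals; no matches overlap. They lie at chr3:142700798-142701097 (plus strand), chr2:155074448-155074747 (minus strand), chr13:93637709-93638008 (minus strand) and chr8:109990186-109990485 (plus strand).
Kyat3 promoter: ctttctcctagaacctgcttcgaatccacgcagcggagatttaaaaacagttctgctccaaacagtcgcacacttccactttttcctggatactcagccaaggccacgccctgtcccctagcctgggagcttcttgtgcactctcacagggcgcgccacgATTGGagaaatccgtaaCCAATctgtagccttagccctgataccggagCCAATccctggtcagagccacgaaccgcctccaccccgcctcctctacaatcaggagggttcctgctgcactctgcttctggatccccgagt
Ahcy promoter: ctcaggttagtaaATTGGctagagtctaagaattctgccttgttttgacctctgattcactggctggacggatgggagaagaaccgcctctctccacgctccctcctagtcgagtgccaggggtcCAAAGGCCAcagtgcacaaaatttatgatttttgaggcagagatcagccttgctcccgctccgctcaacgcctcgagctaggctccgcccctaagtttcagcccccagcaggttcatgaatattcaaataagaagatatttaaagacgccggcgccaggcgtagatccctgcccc
Bhmt promoter: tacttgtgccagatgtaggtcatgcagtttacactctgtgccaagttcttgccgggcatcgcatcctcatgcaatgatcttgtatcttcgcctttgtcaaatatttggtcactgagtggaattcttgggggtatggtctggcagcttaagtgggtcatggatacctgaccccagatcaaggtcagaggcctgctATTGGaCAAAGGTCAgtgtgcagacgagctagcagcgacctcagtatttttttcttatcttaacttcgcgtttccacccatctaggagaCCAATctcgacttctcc
Tat promoter: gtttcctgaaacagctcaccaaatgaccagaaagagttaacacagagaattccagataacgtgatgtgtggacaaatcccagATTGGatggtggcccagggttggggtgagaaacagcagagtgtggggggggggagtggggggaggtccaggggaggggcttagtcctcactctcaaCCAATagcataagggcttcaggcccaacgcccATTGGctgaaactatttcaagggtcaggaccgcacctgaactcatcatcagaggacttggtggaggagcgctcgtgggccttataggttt
All 4 promoters hold CCAAT or its complement ATTGG (3 in Kyat3, 1 in Ahcy, 2 in Bhmt, 3 in Tat). CAAAGNNCA is present in Ahcy, which was lower in KO, and in Bhmt, which was higher, and TTGCNNAA is in none of the 4. CAAAGNNCA was held by 4 of the 24 promoters of lower members (16.7%) and by 1 of the 18 of members not called (5.56%). CCAAT was held by 12 (50%) and 8 (44.4%) of these, and TTGCNNAA by 2 (8.33%) and 1 (5.56%). The numbers are small, and whether they differ between lower members and members not called was not tested.

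In the urea cycle and the steps that feed it, 6 of 11 genes fell and none rose on the deposited scale (median log2 fold change -0.41). Over all tested transcripts 14.5% were lower and 21.4% higher. With equal totals 3 of the 11 were lower (27.3%) and 2 higher (18.2%), against 2.72% and 45.0% of all tested transcripts. The summed abundance of the 11 genes was 3696 ± 482 (SD, n = 4) in KO and 5222 ± 563 (SD, n = 5) in WT livers. Of the cycle itself Otc, Asl and Arg1 fell. Cps1 and Ass1, which act ahead of Otc and between Otc and Asl, were not called, and whether they differ from the other 3 in their change was not tested. Ornithine transcarbamylase, Otc (X-linked; chromosome X, 10252305 to 10321024, plus strand, GRCm38), which joins ornithine and carbamoyl phosphate in mitochondria, stood at 204, 219.6, 189 and 241 in KO livers, against 290.1, 339.8, 376, 373 and 373 in WT livers. All 4 KO values lay below the lowest WT value, and the means were 1.64-fold apart (log2 fold change -0.71, SE 0.11, limma adjusted p = 0.000846). Asl, argininosuccinate lyase, which releases arginine and fumarate, stood at 27.2, 67.7, 34.9 and 38.9 in KO livers, against 98.0, 186, 127, 94.5 and 75.9 in WT livers. This was the steepest decrease of the group, 2.76-fold (log2 fold change -1.45, SE 0.30, limma adjusted p = 0.00460), with the KO female lowest and KO replicate 2 highest among the knockouts. Arg1, the liver arginase that splits arginine into urea and ornithine (chromosome 10, 24915221 to 24927484, minus strand), stood at 779, 888, 625 and 818 in KO livers, against 1478, 1751, 2047, 1520.2 and 1183 in WT livers. Its KO livers kept to a narrow band under the lowest WT liver, 2.05-fold lower on average (log2 fold change -1.02, SE 0.17, limma adjusted p = 0.00127).

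Ass1, which joins citrulline and aspartate, had the highest mean of the urea group over all 9 livers and stood at 842, 1440.0, 866 and 1183 in KO livers, against 1263, 1583, 1395, 1417 and 1319.6 in WT livers. KO replicate 2 reached the WT range and the other 3 KO livers lay below it, and the difference was not called (log2 fold change -0.40, SE 0.16, limma adjusted p = 0.0869); without KO replicate 2 it was (limma adjusted p = 0.0188). Cps1, carbamoyl phosphate synthetase, the entry enzyme of the cycle, averaged 698 ± 83.2 in KO and 790.3 ± 82.9 in WT livers and overlapped (limma adjusted p = 0.249). Nags, which makes the activator of Cps1, was the least abundant of the group and overlapped as well, at 10.5 ± 2.02 in KO and 14.6 ± 4.61 in WT livers (limma adjusted p = 0.168).

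Among the transaminases that deliver nitrogen, both aspartate enzymes fell. Got1, the cytosolic form, stood at 24.5, 59.7, 37.0 and 65.4 in KO livers, against 72.9, 133, 135, 70.1 and 71.0 in WT livers. WT livers formed 2 levels, with replicates 2 and 3 at 133 and 135 and the other 3 between 70.1 and 72.9, and all KO livers lay below the lower level. The difference was 2.07-fold (log2 fold change -1.06, SE 0.33, limma adjusted p = 0.0299); the call was lost when any of 4 libraries was left out, replicates 1 and 3 of the KO and 2 and 3 of the WT livers (limma adjusted p between 0.0620 and 0.0791) and in males alone (0.277). Got2, the mitochondrial form, fell to 128 ± 5.65 in KO livers, against 168 ± 7.97 in WT livers with no overlap (limma adjusted p = 0.00173). Of the alanine transaminases, Gpt2, the mitochondrial form, fell to 89.8 ± 13.6 in KO livers, against 124 ± 12.9 in WT livers, with KO replicate 2 reaching into the WT range (limma adjusted p = 0.0135). Gpt, the cytosolic form, averaged 132 ± 18.1 in KO and 128 ± 19.3 in WT livers (limma adjusted p = 0.803), and Glud1, glutamate dehydrogenase, 475 ± 90.9 in KO and 442 ± 54.1 in WT livers (limma adjusted p = 0.633); neither was called.

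In the tyrosine group Tat moved opposite to most of the other genes on the deposited scale. Tat, tyrosine aminotransferase, which takes the amino group off tyrosine, was higher, and 4 of the other 5 genes fell (median of the 6, -0.44). Over all tested transcripts 21.4% were higher and 14.5% lower. With equal totals Tat was still higher and Pcbd1 alone was lower, against 45.0% and 2.72% of all tested transcripts. Hpd, Hgd, Gstz1 and Fah, which act after Tat, were not called on that scale. The summed abundance of the 6 genes was 2785 ± 487 (SD, n = 4) in KO and 3310.2 ± 367 (SD, n = 5) in WT livers. Tat (chromosome 8, 109990437 to 109999803, plus strand) stood at 344, 897, 705 and 960.1 in KO livers, against 339, 335, 463, 343 and 413 in WT livers. The 3 KO males lay above every WT liver, while the KO female lay within the WT range. The means were 1.92-fold apart (log2 fold change 0.85, SE 0.28, limma adjusted p = 0.0381), and the call was not stable: it was lost on leaving out KO replicate 2, 3 or 4, or any WT liver but replicate 3 (limma adjusted p between 0.0503 and 0.104) and with sex as a covariate (0.0738), and held without the KO female (0.000756) and in males alone (0.0118). Per the authors' deposited table its q-value was 0.0786.

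Hpd, which makes homogentisate, was the most abundant gene of the tyrosine group at 877, 1265, 908 and 997 in KO livers, against 1222, 1856, 1478, 1235 and 1149 in WT livers. KO replicate 2 lay among the WT values, and the gene was not called (log2 fold change -0.45, SE 0.17, limma adjusted p = 0.0605), although its q-value in the authors' deposited table was 0.0413. Hgd, which opens the ring of homogentisate, fell to 264 ± 35.7 in KO livers, against 356 ± 34.5 in WT livers (limma adjusted p = 0.0142). Fah, fumarylacetoacetase, the last enzyme of the pathway, fell to 245 ± 35.7 in KO livers, against 330.2 ± 16.2 in WT livers (limma adjusted p = 0.00897). In both genes no KO liver reached the lowest WT liver. Gstz1, maleylacetoacetate isomerase, which works between Hgd and Fah, stood at 371, 380.3, 323 and 364 in KO livers, against 512, 588, 587, 552 and 537 in WT livers. Its KO livers were tightly grouped and 1.54-fold lower (log2 fold change -0.63, SE 0.08, limma adjusted p = 0.000371). Pcbd1, which recycles the tetrahydrobiopterin cofactor used to make tyrosine from phenylalanine, stood at 195, 193, 149 and 175 in KO livers, against 287, 321, 305, 299.7 and 300.3 in WT livers. It was 1.70-fold lower, with every KO liver well below the lowest WT liver (log2 fold change -0.77, SE 0.09, limma adjusted p = 0.000232).

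In the tryptophan group 5 of 7 genes fell and none rose (median -0.73), against 14.5% and 21.4% of all tested transcripts. With equal totals 3 were lower and 1, Acmsd, higher, against 2.72% and 45.0% of all tested transcripts. The summed abundance was 954 ± 166 (SD, n = 4) in KO and 1397 ± 188 (SD, n = 5) in WT livers. The first enzyme was not called. Tdo2, tryptophan dioxygenase, which commits tryptophan to the kynurenine pathway and was the most abundant of the group, stood at 415, 581, 585 and 749 in KO livers, against 591, 589.9, 946, 881 and 715 in WT livers. KO replicate 4 lay within the WT range and the other 3 KO livers below it (log2 fold change -0.36, SE 0.20, limma adjusted p = 0.195). Of the 6 enzymes after it, 5 fell on the deposited scale. Afmid, the formamidase that releases kynurenine, stood at 19.5, 21.9, 15.3 and 16.7 in KO livers, against 29.0, 47.6, 38.2, 34.0 and 22.5 in WT livers. The 2 groups came close, since WT replicate 5 lay just above the highest KO liver, and the mean was 1.87-fold lower (log2 fold change -0.83, SE 0.20, limma adjusted p = 0.00933). Kmo, kynurenine monooxygenase, stood at 58.4, 58.4, 57.3 and 63.2 in KO livers, against 81.7, 107, 106, 93.8 and 110.2 in WT livers. The 4 KO values were almost equal, and the mean was 1.68-fold lower (log2 fold change -0.73, SE 0.10, limma adjusted p = 0.000413).

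Kynu, kynureninase, which cleaves hydroxykynurenine, stood at 32.9, 50.4, 34.0 and 57.7 in KO livers, against 62.6, 73.8, 93.6, 84.6 and 90.5 in WT livers. KO replicates 2 and 4 were higher than the other 2 KO livers, but all lay below WT, by 1.85-fold on average (log2 fold change -0.90, SE 0.19, limma adjusted p = 0.00501). Haao, the dioxygenase that makes the precursor of quinolinate and so of NAD, stood at 191, 249.8, 189 and 248 in KO livers, against 289.7, 374, 328, 347 and 359 in WT livers. It was 1.55-fold lower without overlap (log2 fold change -0.64, SE 0.12, limma adjusted p = 0.00290). Kyat3, a kynurenine aminotransferase that draws kynurenine off to kynurenate and also uses glutamine (chromosome 3, 142701051 to 142744527, plus strand, GRCm38; promoter shown above), had the largest decrease of all 49 genes. It stood at 33.5, 16.2, 8.47 and 11.4 in KO livers, against 79.6, 108, 91.0, 83.6 and 69.2 in WT livers. The KO female was highest among the knockouts and still less than every WT liver, and the KO males lay lower still. On average Kyat3 was 4.97-fold lower (log2 fold change -2.41, SE 0.32, limma adjusted p = 0.000445), and the call held with equal totals (limma adjusted p = 0.00100) and in males alone (0.00367). Acmsd, which diverts the pathway away from NAD synthesis, averaged 13.2 ± 1.06 in KO and 11.7 ± 5.67 in WT livers; WT values spread widely and it was not called (limma adjusted p = 0.489).

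RNA of each of the 3 members of histidine breakdown was lower on the deposited scale. Together with the proline enzymes, 4 of 6 genes were lower and none higher (median -0.71), against 14.5% and 21.4% of all tested transcripts. With equal totals 2 were lower, Amdhd1 and Ftcd, and none higher, against 2.72% and 45.0% of all tested transcripts. The group summed to 293 ± 27.3 (SD, n = 4) in KO and 446 ± 61.3 (SD, n = 5) in WT livers. Uroc1, urocanase, stood at 37.3, 45.5, 38.7 and 47.2 in KO livers, against 73.2, 97.0, 73.8, 65.2 and 56.0 in WT livers. It was 1.73-fold lower (log2 fold change -0.76, SE 0.15, limma adjusted p = 0.00341). The Uroc1 call was lost with equal totals (limma adjusted p = 0.133) and in males alone (0.0619). Amdhd1, imidazolonepropionase, the next step, stood at 38.0, 43.5, 38.5 and 47.2 in KO livers, against 72.9, 97.8, 87.7, 89.7 and 76.0 in WT livers. The KO livers filled a narrow band, 2.03-fold lower (log2 fold change -1.002, SE 0.11, limma adjusted p = 0.000121). Ftcd, which passes the last carbon of histidine to folate, stood at 49.1, 62.2, 52.3 and 51.9 in KO livers, against 85.5, 108, 93.5, 99.8 and 95.7 in WT livers, and was 1.79-fold lower (log2 fold change -0.83, SE 0.09, limma adjusted p = 0.000163). In all 3 genes the highest KO liver lay below the lowest WT liver.

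Of the proline genes, Prodh fell and the other 2 were not called. Prodh, proline dehydrogenase, stood at 18.3, 25.2, 18.9 and 22.3 in KO livers, against 26.4, 47.2, 35.1, 29.95 and 33.6 in WT livers. The highest KO and lowest WT values nearly met, and the mean was 1.63-fold lower (log2 fold change -0.66, SE 0.16, limma adjusted p = 0.0109). Aldh4a1, which oxidises the product of Prodh to glutamate and was the most abundant gene of the proline and histidine group, stood at 91.8, 98.5, 73.9 and 78.7 in KO livers, against 93.0, 121.9, 94.9, 97.7 and 93.0 in WT livers. WT replicate 2 stood apart from the other 4 WT livers, which shared the range of the knockouts (log2 fold change -0.22, SE 0.11, limma adjusted p = 0.159). Prodh2 averaged 48.6 ± 5.45 in KO and 57.5 ± 14.2 in WT livers (limma adjusted p = 0.382).

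In the methionine and homocysteine group 2 of 9 genes fell (22.2%) and 1 rose (11.1%), with a median of -0.30. Among transcripts at least as abundant as the lowest member, 24.8% were lower and 15.4% higher. The summed abundance of the group was 7434 ± 1079 (SD, n = 4) in KO and 7765 ± 1433 (SD, n = 5) in WT livers. With equal totals 1 was lower and 2 higher, against 2.72% and 45.0% of all tested transcripts. The largest changes were in Ahcy, which releases homocysteine, and in Bhmt, which methylates it. Ahcy, adenosylhomocysteinase, which hydrolyses S-adenosylhomocysteine to homocysteine (chromosome 2, 155059310 to 155074497, minus strand, GRCm38; promoter shown above), stood at 256, 364, 271 and 337 in KO livers, against 730.2, 1075, 889, 779 and 733 in WT livers. The highest KO liver lay far below the lowest WT liver, and the means were 2.74-fold apart (log2 fold change -1.45, SE 0.15, limma adjusted p = 9.74e-05). The call held with equal totals (limma adjusted p = 0.000735) and in males alone (0.00723).

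Bhmt, betaine-homocysteine methyltransferase, which methylates homocysteine back to methionine with betaine (chromosome 13, 93616675 to 93637961, minus strand), moved the other way. It stood at 2881, 3111, 2754 and 3926 in KO livers, against 1207, 2476, 1319, 1287 and 2704 in WT livers. Every KO liver lay above every WT liver, but WT livers formed 2 levels: replicates 2 and 5 came close to the knockouts and the other 3 lay between 1207 and 1319. Bhmt was 1.76-fold higher (log2 fold change 0.89, SE 0.27, limma adjusted p = 0.0278). The call was lost on leaving out KO replicate 2, KO replicate 4, or WT replicate 1, 3 or 4 (limma adjusted p between 0.0585 and 0.0757), with sex as a covariate (0.0576) and in males alone (0.162). Bhmt2, its neighbour on chromosome 13, averaged 83.6 ± 10.5 in KO and 99.0 ± 13.0 in WT livers and was not called (limma adjusted p = 0.147); by RefSeq the start of Bhmt2 lies 36544 bases from that of Bhmt and 134 bases from that of Dmgdh on the opposite strand.

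The enzymes that make S-adenosylmethionine and use it overlapped between genotypes. Mat1a, the liver methionine adenosyltransferase, averaged 1035 ± 196 in KO and 1300.0 ± 463 in WT livers (limma adjusted p = 0.469), and its WT values ran from 724 in a male to 1909 in a female. Gnmt, the glycine methyltransferase that uses up surplus S-adenosylmethionine, averaged 1135 ± 307 in KO and 1627 ± 391 in WT livers (limma adjusted p = 0.0818). Of the genes that turn homocysteine into cysteine, Cbs fell slightly, to 66.1 ± 8.21 in KO livers, against 81.3 ± 7.11 in WT livers (log2 fold change -0.30, SE 0.10, limma adjusted p = 0.0444). Cbs groups overlapped, and the call was lost on leaving out KO replicate 3, KO replicate 4, or WT replicate 2, 3 or 5 (limma adjusted p up to 0.119), in males alone (0.152) and with sex as a covariate (0.0931). Cth, cystathionine gamma-lyase, the following step, averaged 407 ± 90.8 in KO and 280.1 ± 54.8 in WT livers and missed the threshold (limma adjusted p = 0.0511). Cdo1, which oxidises cysteine towards taurine, averaged 1182 ± 147 in KO and 1666 ± 369 in WT livers and missed it too (limma adjusted p = 0.0510), with a q-value of 0.0299 in the authors' deposited table. Csad, the next enzyme of taurine synthesis, averaged 49.9 ± 9.16 in KO and 71.3 ± 26.2 in WT livers (limma adjusted p = 0.365); WT replicate 2 stood at 27.1 and the other 4 WT livers at 67.5 to 89.7.

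Of the 4 branched chain and lysine genes, 2 fell and none rose (group median -0.12), against 14.5% and 21.4% of all tested transcripts. With equal totals 1 was lower and 1 higher, against 2.72% and 45.0% of all tested transcripts. The group summed to 260.4 ± 27.6 (SD, n = 4) in KO and 295 ± 50.3 (SD, n = 5) in WT livers. Aass, which starts the breakdown of lysine in mitochondria, stood at 54.0, 66.0, 49.5 and 69.4 in KO livers, against 77.3, 112, 110.0, 95.8 and 116 in WT livers. It was 1.71-fold lower with no overlap (log2 fold change -0.76, SE 0.14, limma adjusted p = 0.00289). Ivd, isovaleryl-CoA dehydrogenase of the leucine pathway, fell to 35.8 ± 3.32 in KO livers, against 48.5 ± 3.59 in WT livers (limma adjusted p = 0.00433). Bckdha, a subunit of the dehydrogenase complex that commits all 3 branched chain amino acids to oxidation and the most abundant of the 4, stood at 105, 139, 111 and 118 in KO livers, against 99.2, 107, 97.2, 112 and 103 in WT livers. It was not called on the deposited scale (log2 fold change 0.18, SE 0.09, limma adjusted p = 0.162). With equal totals it was called higher (log2 fold change 0.58, limma adjusted p = 0.00357), where the median of all tested transcripts was 0.36. Bckdhb, its partner subunit, had the largest standard error of the 49 log2 fold changes (0.67), with values of 33.2 to 57.7 in KO livers, against 7.89 to 98.4 in WT livers (limma adjusted p = 0.396).

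In the glycine, sarcosine and glyoxylate group 3 of 6 genes fell and none rose (median -0.40), against 14.5% and 21.4% of all tested transcripts. With equal totals 2 were lower and 1, Amt, higher, against 2.72% and 45.0% of all tested transcripts. The summed abundance of the group was 475 ± 48.8 (SD, n = 4) in KO and 621 ± 63.0 (SD, n = 5) in WT livers. Gldc, the glycine decarboxylase of the glycine cleavage system, stood at 24.4, 15.8, 17.8 and 19.7 in KO livers, against 40.0, 47.1, 46.2, 44.2 and 51.2 in WT livers. It was 2.35-fold lower (log2 fold change -1.21, SE 0.12, limma adjusted p = 8.22e-05), the smallest adjusted p among the 49 genes, and the KO female was the highest of the knockouts. Amt, another subunit of the same system, averaged 22.7 ± 2.88 in KO and 23.9 ± 1.10 in WT livers and was not called (limma adjusted p = 0.546). Shmt1, the cytosolic enzyme that interconverts serine and glycine on folate, stood at 41.6, 32.9, 29.1 and 37.9 in KO livers, against 59.7, 76.4, 62.3, 67.8 and 62.2 in WT livers. Every KO liver lay below every WT liver, by 1.86-fold on average (log2 fold change -0.88, SE 0.12, limma adjusted p = 0.000398).

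The choline-derived methyl groups pass through Dmgdh and Sardh, which demethylate dimethylglycine and sarcosine in mitochondria. Dmgdh, which had the highest mean of the glycine group over all 9 livers, stood at 156, 153, 145 and 161 in KO livers, against 179, 215, 181, 162 and 181 in WT livers. It did not overlap between genotypes, though KO replicate 4 and WT replicate 4 nearly met. Its difference missed the threshold (log2 fold change -0.25, SE 0.09, limma adjusted p = 0.0543); without WT replicate 4 it passed (limma adjusted p = 0.0347). Sardh fell to 84.1 ± 8.23 in KO livers, against 125 ± 25.3 in WT livers (limma adjusted p = 0.0115). Agxt, the peroxisomal enzyme that detoxifies glyoxylate, averaged 159.9 ± 37.7 in KO and 177 ± 16.2 in WT livers and overlapped (limma adjusted p = 0.407).

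**Figure D4:**
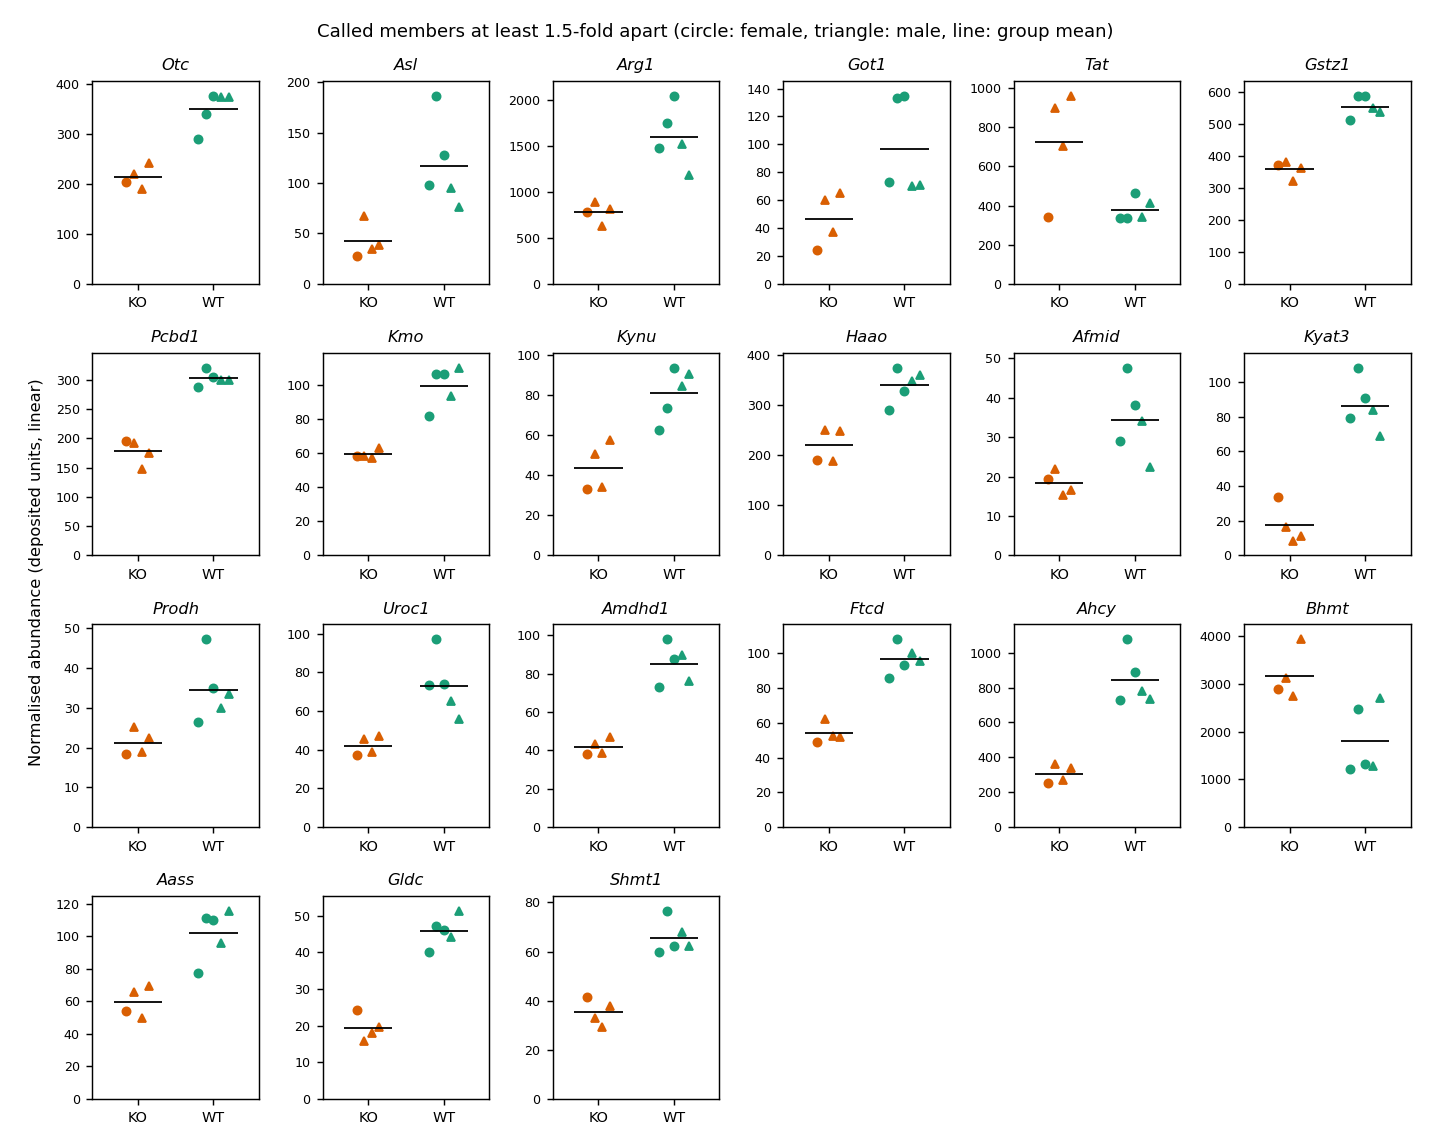
Normalised abundance (deposited units, linear axes from 0) in each KO and WT liver of the 21 genes that were called and at least 1.5-fold apart; circles are females, triangles males and lines group means. KO livers lie below all WT livers in 19 panels and above all in Bhmt, and in Tat the KO female (344) lies among the WT livers.

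Differences between single mice ran through many members at once. Among KO livers, replicate 3 was lowest for 23 of the 49 genes and replicate 1, the female, for 19, while replicate 2 was highest for 23 and replicate 4 for 15. Among WT livers, replicate 1 was lowest for 24 and replicate 2 highest for 29. The median deviation of a library from its group mean was -0.17 in KO replicate 3 and 0.16 in WT replicate 2 on the log2 scale. Together the 49 transcripts made up 1.95% to 2.33% of the listed abundance in KO and 1.53% to 2.43% in WT livers.

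Sex is uneven between the genotypes by the labels, so the comparison was repeated within males. All results by sex take WT replicate 3 as female, as its label says, although its column header says male. The other assignment was not tested. With 3 KO and 2 WT males, 17 members were lower and 1, Tat, higher, against 7.38% and 12.9% of all transcripts; 16 of the 17 were among the 26, the other being Csad. The 10 not called in males were Asl, Got1, Gpt2, Hgd, Fah, Afmid, Prodh, Uroc1, Cbs and Sardh, all with a negative log2 fold change there too. With sex as a covariate 25 members were lower and limma called 0 higher (13.8% and 20.0% of all transcripts; 3 members, Bhmt, Cth and Tat, were higher at an unadjusted p below 0.05, against 25.4% of all transcripts); Tat and Bhmt then had limma adjusted p of 0.0738 and 0.0576. Asl averaged 47.2 in KO males and 27.2 in the KO female, against 85.2 in WT males and 137 in WT females. An interaction of genotype and sex, added after the data were seen, was called by limma for 0 members at an adjusted p below 0.05 (0.119% of all transcripts) and reached an unadjusted p below 0.05 for 8 of 49 (10.7% of all transcripts): Tat, Mat1a, Got1, Kyat3, Prodh2, Gldc, Asl and Uroc1. It rests on 1 KO female, and Tat had the smallest value (limma adjusted p = 0.246).

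The submitters' own sleuth test gave nearly the same list. By the q-value of the authors' deposited table, 28 of the 49 members were lower and 1, Bhmt, higher at a threshold of 0.05, against 11.6% and 13.6% of the 13540 transcripts with a q-value. Of these calls 27 were shared with limma in the same direction, Tat was called by limma alone, and Hpd and Cdo1 by the deposited test alone.

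Other genes of the same pathways were counted from a list of 81. Of these 81, 72 were abundant enough to test. On the deposited scale 32 were lower in KO (44.4%) and 7 higher (9.72%), against 14.5% and 21.4% of all tested transcripts. The median log2 fold change of the 72 was -0.32. With equal totals 10 were lower (13.9%) and 15 higher (20.8%), against 2.72% and 45.0% of all tested transcripts. The median of the 72 was then 0.06, against 0.36 over all tested transcripts. Hal, histidase, the first step of histidine breakdown just ahead of Uroc1, stood at 14.4, 14.3, 7.12 and 25.6 in KO livers, against 41.1, 70.9, 53.4, 47.4 and 59.6 in WT livers, 3.55-fold lower (log2 fold change -1.86, SE 0.30, limma adjusted p = 0.00119). The liver glutaminase Gls2, which supplies ammonia to the urea cycle, stood at 14.3, 24.6, 20.0 and 17.2 in KO livers, against 44.8, 77.6, 47.6, 42.2 and 45.8 in WT livers and was 2.71-fold lower (log2 fold change -1.38, SE 0.20, limma adjusted p = 0.000692). Ido2, which like Tdo2 acts on tryptophan, stood at 5.80, 6.15, 5.86 and 8.51 in KO livers, against 12.6, 13.6, 18.01, 18.9 and 20.0 in WT livers, 2.53-fold lower (log2 fold change -1.21, SE 0.16, limma adjusted p = 0.000394). Aadat, another kynurenine aminotransferase beside Kyat3, stood at 27.7, 30.5, 33.1 and 35.7 in KO livers, against 56.2, 74.5, 68.8, 72.3 and 110.0 in WT livers, 2.40-fold lower (log2 fold change -1.21, SE 0.17, limma adjusted p = 0.000587). In all 4 genes no KO liver reached the lowest WT liver. The transcripts of Hal and Ido2 in the table are annotated in GENCODE M21 as processed transcripts, that is as isoforms without a coding sequence, so their values are not those of the mRNA that makes the enzyme. Chdh, choline dehydrogenase, which starts the conversion of choline to betaine, was the only one of the 7 higher genes whose mean over the livers reached 10. It stood at 42.5, 59.9, 53.7 and 43.9 in KO livers, against 40.5, 43.0, 32.3, 36.9 and 33.5 in WT livers, 1.34-fold higher (log2 fold change 0.41, SE 0.13, limma adjusted p = 0.0303), and KO replicate 1 lay within the WT range. The call on Chdh was lost in males alone (limma adjusted p = 0.0569), with sex as a covariate (0.0571) and in 5 of the 9 fits that left out a library, those lacking replicate 2 or 3 of the knockouts or replicate 3, 4 or 5 of the controls (up to 0.0833).

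Among these further genes, 14 of the 17 of branched chain and lysine breakdown were lower (82.4%) and 1 higher (5.88%) on the deposited scale. Over all tested transcripts 14.5% were lower and 21.4% higher. With equal totals 5 of the 17 were lower (29.4%) and 3 higher (17.6%), against 2.72% and 45.0% of all tested transcripts. The genes named in this paragraph were chosen after their values were seen. Hibch and Acadsb, enzymes of valine and of isoleucine breakdown, were both lower. Hibch averaged 39.5 ± 2.54 in KO and 82.2 ± 8.41 in WT livers (limma adjusted p = 3.15e-05). Acadsb averaged 30.3 ± 5.52 in KO and 63.4 ± 5.93 in WT livers (limma adjusted p = 0.000272). Dbt and Dld, the other subunits of the complex that holds Bckdha and Bckdhb, were lower too. Dbt averaged 26.8 ± 2.81 in KO and 41.5 ± 3.88 in WT livers (limma adjusted p = 0.00106), and its call was lost with equal totals (0.104). Dld averaged 80.2 ± 7.85 in KO and 134 ± 11.4 in WT livers (limma adjusted p = 0.000295). Hibch, Acadsb and Dld stayed lower with equal totals (limma adjusted p = 0.00285, 0.00825 and 0.0353). Bckdk, the kinase that switches this complex off, was the higher one, at 14.3 ± 3.30 in KO and 5.31 ± 1.09 in WT livers (limma adjusted p = 0.000362). Its transcript rested on only 56.7 estimated reads (geometric mean over the libraries), and its mean abundance over the 9 livers was 9.32. In the methionine group 2 of 15 were lower (13.3%) and 0 higher by limma, near the 14.5% lower and below the 21.4% higher of all tested transcripts. At an unadjusted p below 0.05 in limma they were 4 and 0, against 19.3% and 26.4% of all tested transcripts. Of 8 further genes around the urea cycle 3 were lower (37.5%) and 1 higher (12.5%), against 14.5% and 21.4% of all tested transcripts. The lower ones included the aspartate-glutamate carrier Slc25a13, at 73.0 ± 6.77 in KO and 111 ± 8.50 in WT livers (limma adjusted p = 0.000692). The Slc25a13 call was lost with equal totals (limma adjusted p = 0.251).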

How the data were processed

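The tools named in the submitters' processing notes are kallisto and sleuth, and the build is mm10; their versions and filters are not stated there. The deposited table holds, for 30519 transcripts (1 per gene), a normalised abundance signal in 9 libraries, made by the authors, and, for 13540 of them, p-values and q-values deposited by the authors. The coefficient, its error and the mean observation in the deposited table are on a natural log scale; the coefficient runs WT minus KO and was turned round and converted to log2 here. The mean observation also gave the estimated reads, and comparing it with the values showed that the abundances are divided by length (interquartile range of the log2 residual 0.0848 with length and 1.35 without, 7249 transcripts). Columns were tied to samples by mouse number.

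Testing used limma 3.58.1 (R 4.3.3) on log2(value + 1) of the 10950 transcripts whose mean reached 1. The model held genotype alone, the prior variance followed a trend, and p-values were adjusted by Benjamini-Hochberg over all of these transcripts, with calls at 0.05. A fold change on this scale understates that of low transcripts. The labels do not say which mice share a litter. No library pair was a repeat (highest Pearson r 0.990). On simulated data (10950 genes, 200 changed) the limma step recovered 37% of genes changed by a log2 of 0.5 and 87% of those changed by 1, and 12 of 136 calls were false.

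The 49 members, the pathway and marker lists and the tests were chosen with earlier results of these data known. A member has its value in every library where it was called with a ratio of means of at least 1.5 or had the highest mean of its group over the 9 libraries; of the pathway list, the 4 largest called changes in each direction with a mean of at least 10 are given. Alternatives were no filter, a filter at 10, pseudocounts of 0.1 and 5, equal totals, sex as a covariate, males alone, a replicate block, no trend, the submitters' test and leaving out each library.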

Additional observations from a re-analysis of the deposited data

Results flagged for a closer look

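Each of the 49 genes was checked in KO and in WT livers for a single mouse far from the others of its genotype by Dixon's test at 95%, which marks about 1 in 20 groups by chance; it marked 3 of 98 groups, all with replicate 2 highest. Sardh stood at 96.4 in KO replicate 2, with the next KO liver at 81.2. Sardh also stood at 169.5 in WT replicate 2, with the next WT liver at 119.9, and its call held when either library was left out. Aldh4a1, which was not called, stood at 121.9 in WT replicate 2, with the next WT liver at 97.7. These 2 mice were also the ones most often highest in their group, KO replicate 2 for 23 and WT replicate 2 for 29 of the 49 genes.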

How the results depend on the processing

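The 26 lower and 2 higher members became 13 and 8 with equal totals, 17 and 1 in males alone, 25 and 0 with sex as a covariate, 24 and 0 without a filter, and 28 and 1 in the submitters' test. Leaving out each library gave 24 to 29 lower and 0 to 2 higher members, and a median between -0.50 and -0.40; the median was -0.041 with equal totals. Higher calls fell to 0 when replicate 2 or 4 of the KO, or 1 or 4 of the WT livers, was left out, and to 1 without WT replicate 3 or 5. Of the 26 lower calls 24 held in every such fit, the exceptions being Got1 and Cbs. The pathway list gave 10 lower and 15 higher with equal totals, where 2.72% of all tested transcripts were lower and 45.0% higher. It gave 21 lower in males alone, 4 higher with sex as a covariate and 2 higher with a filter at 10. Over the left-out libraries it gave 26 to 34 lower and 4 to 7 higher (4 higher without KO replicate 3 or WT replicate 3). With equal totals 29 members had a negative log2 fold change, against 41 on the deposited scale. Of the 12 that changed sign 2 were called lower, Got2 and Cbs, and among the members given library by library Ass1 (0.0010), Tdo2 (0.042), Aldh4a1 (0.17) and Dmgdh (0.15), not called on either scale, did so. Pseudocounts of 0.1 and 5 and dropping the trend changed no call among the 27 members given library by library. Deviations of same-numbered mice correlated weakly (0.23, 0.08, -0.18 and 0.11 for replicates 1 to 4). Of the KO mice only replicate 1 was closest to the WT mouse of its own number. These values cannot show whether same-numbered mice share a litter. A replicate block gave 27 lower and 1 higher members, 33 and 6 pathway genes and a median of -0.46. The causes were not tested. In the simulation, in which 200 of 10950 genes changed, log2 changes of 0.5 were recovered in 37% of cases. In the data 1589 transcripts were called lower and 2345 higher, so the adjustment differs and 37% is not the recovery rate of this comparison. With 4 and 5 mice, a gene not called may still differ.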
